A study of Mus musculus with 12 samples.

Results

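Levels of 9 BCL2 family genes were compared in T helper 17 (TH17) cells that had entered the central nervous system (CNS) of mice with experimental autoimmune encephalomyelitis, used to model multiple sclerosis. The genes, taken by name from the deposited table, were Bcl2, Bcl2l1, Mcl1, Bcl2a1b, Bcl2a1d, Bax, Bak1, Bcl2l11 and Pmaip1, 9 of 47359 rows. The list was drawn up under the name of the BCL2 family and the executioner caspases, yet it held 0 caspases, so caspase genes are described beside it as part of the surrounding pathway. Donor T cells carried the label 2D2, a transgenic T cell receptor for a myelin protein, and were either 2D2-IL-17A/F-DKO (DKO), lacking the cytokine genes Il17a and Il17f, or 2D2-WT (WT). They had been transferred into RAG2-/- mice, which lack lymphocytes of the T and B lineages but keep their other blood cells, and were recovered when disease was at its peak. From each genotype, cells were sorted as CXCR6+ or SLAMF6+, by a chemokine receptor or a lymphocyte adhesion receptor, with 1000 living cells per library. There was 1 DKO CXCR6+ library beside 5 WT CXCR6+ libraries, and 1 DKO SLAMF6+ library beside 5 WT SLAMF6+ libraries. The sources used here give neither the age and sex of the mice nor the day of sampling, and do not say what the replicate numbers mark, so p-values reflect the spread among these libraries alone, which may be technical.

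Proteins of the BCL2 family decide whether the outer membrane of mitochondria stays intact. BCL2, BCL-XL (from Bcl2l1), MCL1 and A1 (from the Bcl2a1 genes) hold the pore-forming proteins BAX and BAK in check, while BH3-only proteins such as BIM (from Bcl2l11) and NOXA (from Pmaip1) bind and disable those guardians. Once BAX or BAK opens the membrane, cytochrome c reaches APAF1, caspase-9 is activated, and the executioner caspases cut up the cell. In T cells, BCL2 and MCL1 are known to sustain survival, BCL-XL and A1 are induced by receptor signals, and BIM removes activated cells when cytokine support wanes.

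Several features set groups of libraries apart. Totals were 8552216 counts in the DKO CXCR6+ library and 6818658 to 8710148 in WT CXCR6+, and 8285134 in the DKO SLAMF6+ library and 8134987 to 11635037 in WT SLAMF6+. Il17a was at 0 CPM (counts per 1000000 of the scaled library total) in DKO CXCR6+ and at 0.434 CPM in DKO SLAMF6+, against 191 to 465 CPM in WT. Trbv16, the segment of the 2D2 beta chain, made up 9.96% of Trbv counts in DKO CXCR6+ and 6.51% in DKO SLAMF6+, against at least 99.6% in every WT library, so the DKO libraries go against their 2D2 label. The summed level of 8 neutrophil markers was 929 CPM in DKO CXCR6+, with 96.3 CPM in DKO SLAMF6+, with 5 of 8 detected in each, against at most 3.79 CPM in WT libraries, where S100a8 and S100a9 stood at 0. Haemoglobin genes held 11.9% of counts in DKO SLAMF6+ and at most 0.000352% in each other library. Cxcr6 transcript had 382 CPM in DKO CXCR6+ against 4.34 to 42.9 CPM in WT CXCR6+, and 162 CPM in DKO SLAMF6+ against 11.4 to 19.1 CPM in WT SLAMF6+, so its levels in the WT subsets overlapped and did not separate them. Slamf6 transcript had 75.8 CPM in DKO CXCR6+ against 1.69 to 5.02 CPM in WT CXCR6+, and 259 CPM in DKO SLAMF6+ against 5.90 to 11.0 CPM in WT SLAMF6+, with no overlap of the WT subsets. Mitochondrial genes took 12.9 to 17.6% of counts in WT CXCR6+ and 2.20 to 5.24% in WT SLAMF6+, with the DKO libraries at 7.45% (CXCR6+) and 8.56% (SLAMF6+). All 8 T cell markers were detected in every group, with a summed level of 4220 CPM in DKO CXCR6+, 3499 to 5465 CPM in WT CXCR6+, 4583 CPM in DKO SLAMF6+ and 5833 to 6830 CPM in WT SLAMF6+. Those sums hold opposite differences. Trac had 543 CPM in DKO CXCR6+ against 2019 to 3397 CPM in WT CXCR6+, and 728 CPM in DKO SLAMF6+ against 3506 to 4157 CPM in WT SLAMF6+. Cd3d, Cd3e, Cd3g, Cd247, Cd4 and Lck lay above the WT range in both DKO libraries, as for Cd3e at 578 CPM in DKO CXCR6+ against 141 to 179 CPM in WT CXCR6+, and at 544 CPM in DKO SLAMF6+ against 217 to 242 CPM in WT SLAMF6+. Cd2, the remaining marker, lay inside the WT CXCR6+ range in DKO CXCR6+, at 484 CPM against 327 to 508 CPM. In DKO SLAMF6+ it lay below the WT SLAMF6+ range, at 508 CPM against 592 to 698 CPM. In such bulk samples, fewer cells of a type and less RNA per cell cannot be told apart.

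Bcl2a1b and Bcl2a1d encode near-identical forms of A1, and their counts cannot be fully separated. Bcl2a1b lies on chromosome 9 at 89199209-89207827 on the plus strand of GRCm38, and Bcl2a1d on the same chromosome at 88723285-88731914 on the minus strand. Of all 38-nt stretches of their annotated transcripts, the length of a read, 15.5% of those of Bcl2a1b and 14.4% of those of Bcl2a1d occur in no other gene. Bcl2a1b shares 66.2% of its stretches with Bcl2a1d and 46.8% with Gm29094, a gene model that overlaps it on the same strand, and Bcl2a1d shares 70.3% with Bcl2a1a. The opening 120 nt of the coding sequence of the 3 copies (GENCODE M21 transcripts, GRCm38, read 5′ to 3′) show how little there is to tell them apart, with the 7 positions that differ in capitals. Bcl2a1b runs over chr9:89199360-89199479 on the plus strand, Bcl2a1d over chr9:88731600-88731719 on the minus strand and Bcl2a1a over chr9:88957051-88957170 on the plus strand.
Bcl2a1b: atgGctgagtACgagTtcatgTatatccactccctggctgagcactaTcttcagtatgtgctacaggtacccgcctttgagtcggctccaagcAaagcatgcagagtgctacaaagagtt
Bcl2a1d: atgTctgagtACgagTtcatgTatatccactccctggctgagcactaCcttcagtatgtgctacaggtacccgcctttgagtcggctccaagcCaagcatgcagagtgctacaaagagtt
Bcl2a1a: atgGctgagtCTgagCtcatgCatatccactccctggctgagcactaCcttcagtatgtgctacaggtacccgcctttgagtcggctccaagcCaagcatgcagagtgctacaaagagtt
The A1 genes are therefore given also as the sum of Bcl2a1a, Bcl2a1b, Bcl2a1c and Bcl2a1d. Of the other members, Bcl2 lies at chr1:106538178-106714274 (minus strand), Bcl2l1 at chr2:152780668-152831728 (minus), Bcl2l11 at chr2:128126038-128162547 (plus), Mcl1 at chr3:95658788-95663176 (plus), Bax at chr7:45461697-45466898 (minus) and Bak1 at chr17:27019810-27029009 (minus), all in GRCm38. The members other than the A1 genes were far more distinct, with 80.8% (Bak1), 89.9% (Bax), 94.3% (Bcl2) and at least 99.7% (Bcl2l1, Bcl2l11, Mcl1, Pmaip1) of such stretches found in no other gene. Strand is not recorded in libraries of this kind, so reads from the 558 nt of exon that Bcl2 shares with its antisense gene D630008O14Rik, 6.09% of its exons, cannot be told apart, and the same holds for Bak1 and the opposite-strand gene Ggnbp1, whose annotated models cover up to 18.2% of its exons.

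Promoter sequence of the members was looked up in RefSeq (GRCm38.p6), from 250 bases before to 50 after each annotated start. Of the 9 members, 8 matched, all but Pmaip1, with 11 promoters between them. Both strands were searched for 4 motifs, chosen with these sequences in view: FOXO (GTAAACA), STAT (TTCNNNGAA), CRE (TGACGTCA) and the E-box CACGTG. FOXO and E-box matches each fell in 1 of the 11 promoters, while STAT and CRE matched 0. The 2 promoters with a match are those of an activator and an effector of death and are shown 5′ to 3′ with the matches in capitals. Promoter 1 of Bcl2l11 (chr2:128125788-128126087, plus strand) holds the FOXO letters 227 bases before the start. Promoter 2 of Bcl2l11 (chr2:128127325-128127624, plus strand) holds 0 matches to the 4 motifs. Of the 32851 RefSeq promoters of this length, 3.65% hold the FOXO letters. The Bax promoter (chr7:45466849-45467148, minus strand) holds the E-box at 9 bases before and at 35 bases after the start, and 7.15% of all promoters hold at least 1. A match is a description of letters and not of binding.
Bcl2l11: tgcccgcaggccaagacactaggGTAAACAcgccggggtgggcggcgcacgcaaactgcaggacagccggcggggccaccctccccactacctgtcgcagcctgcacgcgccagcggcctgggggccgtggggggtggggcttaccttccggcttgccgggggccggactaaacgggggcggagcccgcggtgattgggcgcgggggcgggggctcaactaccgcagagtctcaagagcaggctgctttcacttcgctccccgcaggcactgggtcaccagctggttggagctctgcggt
Bax: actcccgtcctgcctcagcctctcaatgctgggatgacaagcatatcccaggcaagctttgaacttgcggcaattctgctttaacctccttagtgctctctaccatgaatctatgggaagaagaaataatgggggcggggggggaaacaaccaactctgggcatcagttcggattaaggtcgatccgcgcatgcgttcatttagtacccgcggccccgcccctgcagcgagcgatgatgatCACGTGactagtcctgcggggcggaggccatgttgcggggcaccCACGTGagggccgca

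All 9 members passed the filter on low counts. Set side by side per length (CPM per kilobase of the union of annotated exons), Bax had the highest level in both WT subsets, at 115 ± 8.23 in CXCR6+ and 167 ± 11.4 in SLAMF6+ (SD, n = 5 each). In WT CXCR6+ the order below it was Bcl2a1b (45.4 ± 9.25), Bcl2l1 (32.6 ± 2.73), Bcl2a1d (29.3 ± 10.6), Bcl2 (18.5 ± 1.79), Mcl1 (7.98 ± 0.368), Pmaip1 (4.92 ± 1.07), Bak1 (1.82 ± 0.475) and Bcl2l11 (0.497 ± 0.125), all in CPM per kilobase. Between libraries of WT CXCR6+, the neighbours Bcl2a1b and Bcl2l1, Bcl2l1 and Bcl2a1d, and Bcl2a1d and Bcl2 overlapped in that order. WT SLAMF6+ kept that order except that Pmaip1 (6.89 ± 1.3 CPM per kilobase) stood above Mcl1 (4.83 ± 0.255 CPM per kilobase). In both DKO libraries Bcl2a1b took the top place, at 98.6 CPM per kilobase in CXCR6+ and 131 CPM per kilobase in SLAMF6+, ahead of Bax at 75.7 and 91.2 CPM per kilobase in the same libraries. Mcl1 stood above Bcl2 in both, at 10.5 against 7.11 CPM per kilobase in DKO CXCR6+ and 9.49 against 8.89 CPM per kilobase in DKO SLAMF6+. The order depends on the length used. With the median length of annotated coding transcripts, Bax led in the DKO libraries too, at 149 and 179.5 CPM per kilobase. Bcl2l1 then came next after Bax in both WT subsets, at 91.6 ± 7.66 (CXCR6+) and 89.3 ± 6.88 CPM per kilobase (SLAMF6+). With that length Bcl2 stood above Mcl1 in DKO SLAMF6+, at 16.2 against 15.2 CPM per kilobase. Mcl1 stayed above Bcl2 in DKO CXCR6+, at 16.7 against 13.0 CPM per kilobase.

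**Figure D1:**
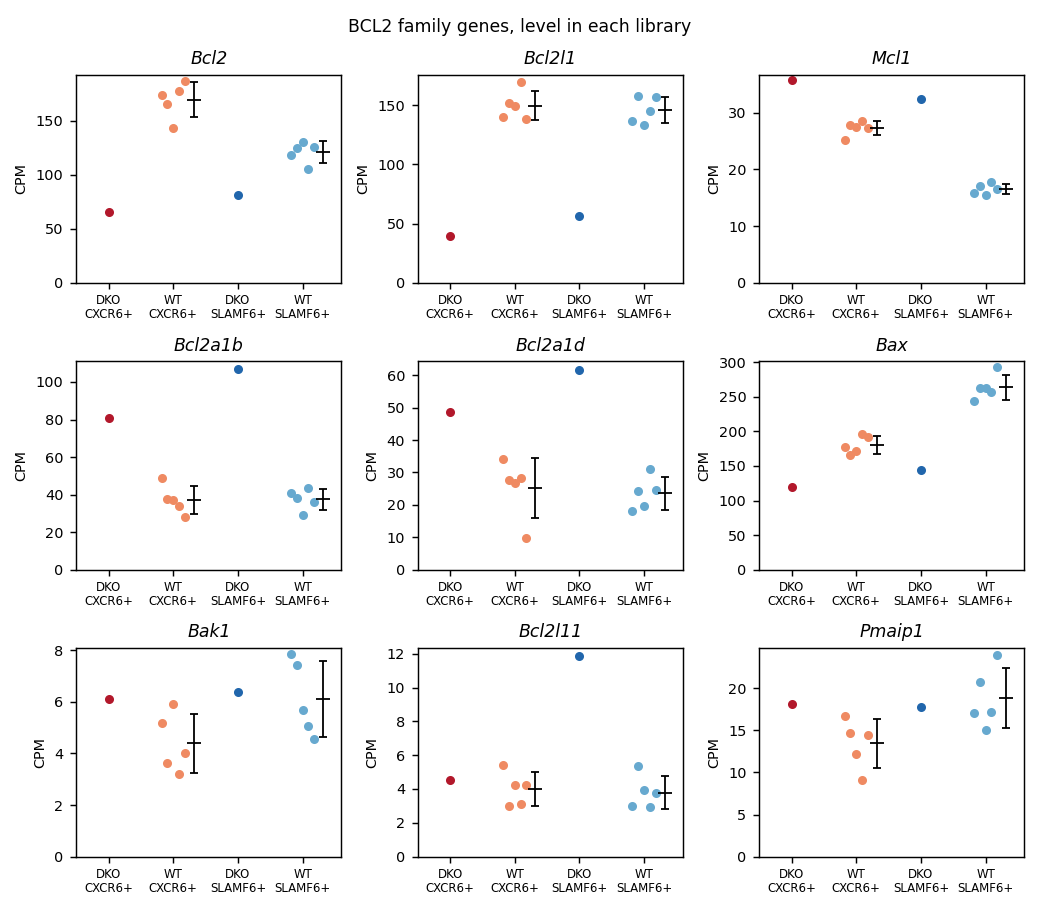
Level of each of the 9 BCL2 family genes in CPM (y axes, from 0, each with its own range) in every library, grouped as DKO CXCR6+, WT CXCR6+, DKO SLAMF6+ and WT SLAMF6+. Each point is 1 library and the black bars give the mean and SD of 5 WT libraries. Bcl2 and Bcl2l1 lie below the WT points in both DKO libraries, while Mcl1 and Bcl2a1b lie above them.

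The comparison of CXCR6+ with SLAMF6+ cells in WT asks how the 2 subsets differ within 1 genotype. Both guardians Bcl2 and Mcl1 were higher in CXCR6+ cells and the pore former Bax was lower. Of 9 members, 3 passed the test (2 higher, 1 lower), beside 33.3% of all 21565 genes tested, 15.6% higher and 17.7% lower. A call is an adjusted p under 0.05 in the quasi-likelihood test of edgeR, adjusted by Benjamini-Hochberg over all genes tested. The median log2 fold change was 0.04 over the members and 0.13 over all genes tested. The make-up of the libraries moved with this comparison: ribosomal protein genes took 10.6 to 12.2% of counts in WT CXCR6+ and 21.5 to 22.8% in WT SLAMF6+, Malat1 took 0.888 to 1.18% in WT CXCR6+ and 0.187 to 0.257% in WT SLAMF6+, and mitochondrial genes differed as given above. Their part in the member values was not tested.

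Bcl2, the founding guardian, stood at 174, 165, 143, 177 and 187 CPM in the WT CXCR6+ libraries, against 119, 125, 131, 105 and 125 CPM in WT SLAMF6+. The groups did not overlap, and the log2 fold change was 0.49 ± 0.083 (SE; adjusted p = 0.000928). Mcl1, a short-lived guardian, had 25.2, 27.9, 27.4, 28.6 and 27.3 CPM in WT CXCR6+, against 15.8, 17.0, 15.6, 17.7 and 16.5 CPM in WT SLAMF6+. Every CXCR6+ library was above every SLAMF6+ library (log2 fold change 0.72 ± 0.073 SE, adjusted p = 2.31e-05). Bax had 178, 165, 172, 196 and 191 CPM in WT CXCR6+, against 244, 263, 263, 256 and 292 CPM in WT SLAMF6+. Here every CXCR6+ library was below every SLAMF6+ library (log2 fold change -0.55 ± 0.067 SE, adjusted p = 9.77e-05).

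The other guardians were at like levels. Bcl2l1 had 140.0, 152, 149.6, 169 and 138 CPM in WT CXCR6+, against 137, 158, 133, 145 and 157 CPM in WT SLAMF6+. Its groups overlapped, and the log2 fold change was 0.04 (95% interval -0.13 to 0.20, adjusted p = 0.734). The log2 fold change was -0.02 for Bcl2a1b (95% interval -0.34 to 0.31) and 0.10 for Bcl2a1d (-0.52 to 0.72), and the sum of the A1 copies differed by 0.0038 ± 0.18 (SE; adjusted p = 1). WT CXCR6+ replicate 5 was low in Bcl2a1d, with 87 counts, against 233 to 284 in the other WT CXCR6+ libraries, while its Bcl2a1b count was 253, against 323 to 405 in the others. Bak1, the other pore former, averaged 4.39 ± 1.14 CPM in WT CXCR6+, with 6.11 ± 1.46 CPM in WT SLAMF6+ (SD; log2 fold change -0.48, adjusted p = 0.15). Bcl2l11 averaged 3.99 ± 1.01 CPM in WT CXCR6+, with 3.78 ± 0.98 CPM in WT SLAMF6+ (log2 fold change 0.08, adjusted p = 0.839). Pmaip1 averaged 13.5 ± 2.94 CPM in WT CXCR6+, with 18.8 ± 3.56 CPM in WT SLAMF6+ (log2 fold change -0.48, adjusted p = 0.0635), and it passed the threshold as lower in CXCR6+ in 5 of 24 other settings. The sign of the Bcl2l1, Bcl2l11, Bcl2a1b and Bcl2a1d differences turned under some settings, and the direction of these 4 genes between WT subsets is therefore not given.

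The DKO CXCR6+ library was compared with the WT CXCR6+ libraries. Genotype cannot be told apart from what else set the DKO library off, such as its Trbv16 share and neutrophil markers given above. Bcl2 and Bcl2l1 were lower, Bax was lower, and Mcl1 and Bcl2a1b were higher. Of 9 members 5 passed the test (2 higher, 3 lower), beside 28.7% of all genes tested, 12.8% higher and 15.9% lower. The median log2 fold change was 0.39 over the members and -0.22 over all genes tested. A single DKO library has no replicate, so its variation was taken to be that of the WT libraries, an assumption these data cannot check.

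Bcl2l1, the BCL-XL gene, fell to 39.9 CPM in DKO CXCR6+, against 140.0, 152, 149.6, 169 and 138 CPM in WT CXCR6+ (log2 fold change -1.91 ± 0.15 SE, adjusted p = 4.53e-06). This was a 3.75-fold lower level. Bcl2 fell to 65.1 CPM in DKO CXCR6+, against 143 to 187 CPM in WT CXCR6+ (log2 fold change -1.38 ± 0.16 SE, adjusted p = 7.27e-05). Both DKO values lay below all 5 WT values. Bcl2a1b rose to 80.6 CPM in DKO CXCR6+, against 48.9, 37.5, 36.9, 33.8 and 28.2 CPM in WT CXCR6+ (log2 fold change 1.12 ± 0.24 SE, adjusted p = 0.0041). Bcl2a1d had 48.7 CPM in DKO CXCR6+, against 34.1, 27.5, 26.6, 28.3 and 9.71 CPM in WT CXCR6+ (log2 fold change 0.95 ± 0.45 SE, adjusted p = 0.156). As a sum, the A1 copies rose to 135 CPM in DKO CXCR6+, against 37.9 to 83.0 CPM in WT CXCR6+ (log2 fold change 1.11 ± 0.29 SE, adjusted p = 0.0147), which does not depend on how shared reads were split among them. Bcl2a1a itself had 5.09 CPM in DKO CXCR6+ and 0 to 0.457 CPM in WT CXCR6+. Mcl1 had 35.7 CPM in DKO CXCR6+, against 25.2 to 28.6 CPM in WT CXCR6+ (log2 fold change 0.39 ± 0.12 SE, adjusted p = 0.0333). That call was lost without WT CXCR6+ replicate 1 (adjusted p = 0.0539), with no filter on low counts (0.172) and with the 2 groups fitted alone (0.104), within 0.00314 to 0.172 over all alternatives.

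Among the pore formers, Bax fell to 119 CPM in DKO CXCR6+, against 178, 165, 172, 196 and 191 CPM in WT CXCR6+ (log2 fold change -0.60 ± 0.12 SE, adjusted p = 0.00342), a call lost after correction for transcript length and GC content (adjusted p = 0.0544, in a range of 1.18e-05 to 0.0544 across alternatives). Bak1 had 6.13 CPM in DKO CXCR6+ and 3.19 to 5.94 CPM in WT CXCR6+ (log2 fold change 0.48, 95% interval -0.41 to 1.38, adjusted p = 0.438). Of the BH3-only genes, Bcl2l11 had 4.51 CPM in DKO CXCR6+ and 2.96 to 5.43 CPM in WT CXCR6+ (log2 fold change 0.18, 95% interval -0.77 to 1.12, adjusted p = 0.805). Pmaip1 had 18.2 CPM in DKO CXCR6+ and 9.06 to 16.8 CPM in WT CXCR6+ (log2 fold change 0.43, 95% interval -0.24 to 1.11, adjusted p = 0.351).

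**Figure D2:**
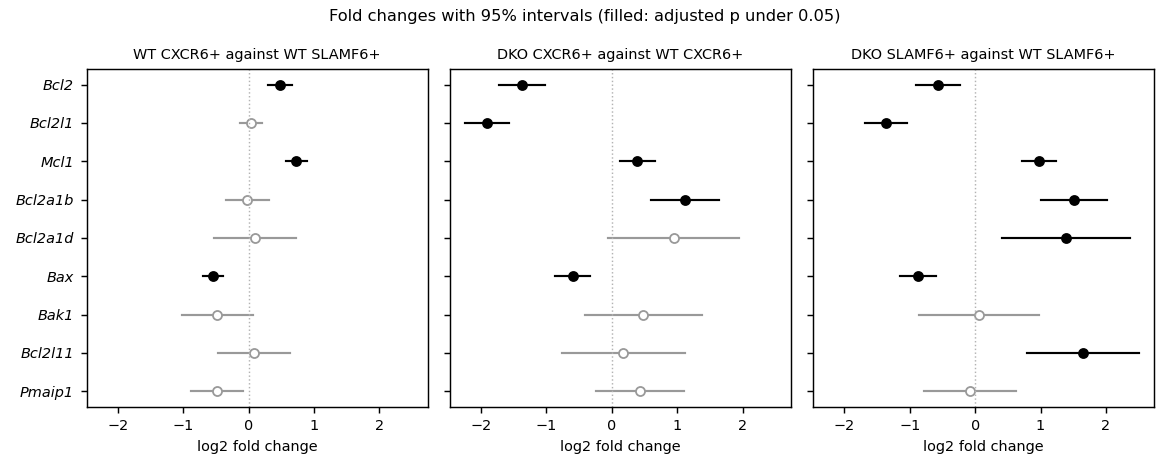
Log2 fold change of the 9 genes (x axis) with its 95% interval in 3 comparisons, with filled black points for adjusted p under 0.05 and open grey points otherwise. Bcl2l1 is lower in both DKO comparisons (-1.91 in CXCR6+ and -1.36 in SLAMF6+) but at 0.04 between the WT subsets.

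The SLAMF6+ comparison of DKO with WT shares no library with the CXCR6+ one, though each shares its WT libraries with the comparison of WT subsets. Both DKO libraries carry the replicate number 0, and the sources used here do not say whether they share a mouse. Guardians again went in both directions, and here Bcl2l11 was higher as well. Of 9 members 7 passed the test (4 higher, 3 lower), beside 31.1% of all genes tested, 13.5% higher and 17.5% lower. The median log2 fold change was 0.06 over the members and -0.05 over all genes tested. Here too genotype cannot be told apart from the Trbv16 share, neutrophil markers and haemoglobin counts of the DKO library.

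Bcl2l1 fell to 56.8 CPM in DKO SLAMF6+, against 137, 158, 133, 145 and 157 CPM in WT SLAMF6+ (log2 fold change -1.36 ± 0.14 SE, adjusted p = 3.92e-05). Bcl2 fell to 81.4 CPM in DKO SLAMF6+, against 119, 125, 131, 105 and 125 CPM in WT SLAMF6+ (log2 fold change -0.57 ± 0.15 SE, adjusted p = 0.0141). The Bcl2 call was lost when only genes of at least 10 CPM in 5 libraries were fitted (-0.28, adjusted p = 0.124) and after correction for transcript length and GC content (-0.38, adjusted p = 0.0939), in a range of 0.00385 to 0.124 across alternatives. Mcl1 rose to 32.4 CPM in DKO SLAMF6+, against 15.8, 17.0, 15.6, 17.7 and 16.5 CPM in WT SLAMF6+ (log2 fold change 0.97 ± 0.12 SE, adjusted p = 0.000102), a level 1.96-fold higher. Bcl2a1b rose to 107 CPM in DKO SLAMF6+, against 40.7, 38.2, 29.1, 43.5 and 36.1 CPM in WT SLAMF6+ (log2 fold change 1.51 ± 0.23 SE, adjusted p = 0.000492). Bcl2a1d rose to 61.7 CPM in DKO SLAMF6+, against 18, 24.3, 19.7, 31.1 and 24.7 CPM in WT SLAMF6+ (log2 fold change 1.39 ± 0.44 SE, adjusted p = 0.0344). The Bcl2a1d call passed in 15 of 20 alternatives. It was lost without any 1 of WT SLAMF6+ replicates 1, 2, 3 and 5, among other settings. The A1 copies summed to 179.9 CPM in DKO SLAMF6+, against 48.7 to 76.4 CPM in WT SLAMF6+ (log2 fold change 1.53 ± 0.29 SE, adjusted p = 0.00191).

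Bax fell to 144 CPM in DKO SLAMF6+, against 244, 263, 263, 256 and 292 CPM in WT SLAMF6+ (log2 fold change -0.87 ± 0.12 SE, adjusted p = 0.00032). Bak1 had 6.37 CPM in DKO SLAMF6+ and 4.55 to 7.85 CPM in WT SLAMF6+, inside the WT range (log2 fold change 0.06, 95% interval -0.86 to 0.98). Bcl2l11, the BIM gene, rose to 11.9 CPM in DKO SLAMF6+, against 2.97, 5.33, 3.91, 2.92 and 3.76 CPM in WT SLAMF6+ (log2 fold change 1.65 ± 0.39 SE, adjusted p = 0.00736). The DKO value rests on 82 counts, with a 95% exact binomial interval of 9.44 to 14.7 CPM, and that interval lies above all 5 WT values. In DKO CXCR6+ 39 counts gave an interval of 3.21 to 6.16 CPM, and such intervals cover counting error only. Pmaip1 had 17.8 CPM in DKO SLAMF6+ and 15.1 to 24.0 CPM in WT SLAMF6+, inside the WT range (log2 fold change -0.08, 95% interval -0.78 to 0.62), and its sign turned under some settings.

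Neutrophils and macrophages are also known to express Bcl2a1 and Mcl1, and some markers of such cells were higher in the DKO libraries. In CXCR6+ the 8 neutrophil markers summed to 929 CPM in DKO and 0 to 3.79 CPM in WT, with S100a8 at 498 CPM and S100a9 at 426 CPM in DKO, while Retnlg, Cxcr2 and Mpo were at 0 there. In SLAMF6+ they summed to 96.3 CPM in DKO and 0.281 to 1.17 CPM in WT, and Ly6g, Mpo and Elane were at 0 in DKO. The 12 macrophage and microglia markers summed to 21.3 CPM in DKO CXCR6+, with Adgre1, Aif1, C1qa, C1qb and C1qc at 0, against 8.45 to 19.0 CPM in WT CXCR6+. Lyz2 made up 10.4 CPM of that DKO sum, against at most 0.112 CPM in WT CXCR6+, while Cd68 (1.5 CPM in DKO, 2.9 to 6.58 CPM in WT) and Aif1 (0 CPM in DKO, 0.446 to 4.94 CPM in WT) lay below the WT CXCR6+ range. They summed to 65.7 CPM in DKO SLAMF6+, with only C1qc at 0, against 23.9 to 35.7 CPM in WT SLAMF6+. Tmem119, a microglia marker, went the other way there, at 0.434 CPM in DKO SLAMF6+ against 13.9 to 22.0 CPM in WT SLAMF6+. The 6 MHC class II and dendritic cell markers, all detected, summed to 265 CPM in DKO CXCR6+ and 87.2 to 142 CPM in WT CXCR6+, and to 1549.7 CPM in DKO SLAMF6+ and 269 to 330.4 CPM in WT SLAMF6+. The 5 markers of CD8 T and NK cells summed to 171 CPM in DKO CXCR6+ (4 detected, Cd8a at 0) and 9.82 to 29.2 CPM in WT CXCR6+, and to 139 CPM in DKO SLAMF6+ (5 detected) and 26.4 to 36.6 CPM in WT SLAMF6+. Klrk1 held 160 CPM of that sum in DKO CXCR6+, and its DKO SLAMF6+ level was 82.4 CPM. Cd8b1 lay below the WT range in both subsets, at 1.16 CPM in DKO CXCR6+ against 4.23 to 17.8 CPM in WT. In DKO SLAMF6+ it had 2.17 CPM, against 17.6 to 24.5 CPM in WT. Flt3, a dendritic cell marker, had 0.231 CPM in DKO CXCR6+, below the 1.71 to 2.41 CPM of WT. H2-Ab1 lay inside its WT CXCR6+ range there. Klrk1, Klrb1c, Ncr1, Cd74, H2-Aa, H2-Eb1 and Itgax lay above the WT range in both DKO libraries. The part of these cell types in the member values was not tested. Leaving haemoglobin and other erythroid marker genes out of the library sizes changed no call of a member.

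Whether the difference between DKO and WT was unlike between subsets was tested as an interaction, the DKO-minus-WT difference in CXCR6+ less that in SLAMF6+. Of 9 members 1 passed, Bcl2, beside 10.3% of all genes tested, 6.36% higher and 3.94% lower. Bcl2 had a log2 difference of differences of -0.81 ± 0.20 (SE; adjusted p = 0.0305): 65.1 CPM in DKO CXCR6+ against 169 ± 16.4 CPM in WT CXCR6+, and 81.4 CPM in DKO SLAMF6+ against 121 ± 9.93 CPM in WT SLAMF6+ (SD, n = 5 each). That call was lost without WT SLAMF6+ replicate 1 (adjusted p = 0.0508) and with limma-voom (0.0573), no filter (0.0868), correction for length and GC content (0.0544) or an mt-Ts1 term (whether a library had 0 counts of that gene) (0.059), within 0.000752 to 0.0868 over all alternatives. Bcl2l1 (-0.55, adjusted p = 0.0954), Mcl1 (-0.59, adjusted p = 0.0631) and Bcl2l11 (-1.47, 95% interval -2.84 to -0.11, adjusted p = 0.177) missed the threshold. Across alternatives, Mcl1 passed in 4 of 21, Bcl2l1 in 3 of 21 and Bcl2l11 in 0 of 20. For Bcl2l11, then, a call in SLAMF6+ and none in CXCR6+ did not amount to a difference between subsets that passed the test.

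Between the DKO libraries themselves, 1 of each subset, no test was made. Bcl2l11 differed most among the members, at 4.51 CPM in DKO CXCR6+, with 11.9 CPM in DKO SLAMF6+ (log2 difference -1.35 with a prior count of 2). The log2 difference was -0.51 for Bcl2l1, -0.41 for Bcl2a1b, -0.34 for Bcl2a1d, -0.32 for Bcl2, -0.27 for Bax, -0.05 for Bak1, 0.03 for Pmaip1 and 0.14 for Mcl1. Bcl2, higher in CXCR6+ in WT, was thus lower in CXCR6+ in the DKO pair.

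Ratios of counts within a library do not depend on how libraries were scaled. The Bcl2 to Bax ratio was 0.546 in DKO CXCR6+ and 0.833 to 1 in WT CXCR6+, and 0.566 in DKO SLAMF6+ and 0.409 to 0.498 in WT SLAMF6+. It lay below the WT range in CXCR6+ and above it in SLAMF6+, and the DKO libraries were closer to each other than the WT subsets. The Bcl2l1 to Bax ratio lay below the WT range in both subsets, at 0.334 in DKO CXCR6+ against 0.721 to 0.917 in WT CXCR6+, and at 0.395 in DKO SLAMF6+ against 0.508 to 0.599 in WT SLAMF6+. Mcl1 counts were 0.896 of Bcl2l1 counts in DKO CXCR6+, against 0.169 to 0.198 in WT CXCR6+, and 0.571 in DKO SLAMF6+, against 0.105 to 0.122 in WT SLAMF6+. Summed A1 counts exceeded those of Bcl2l1 in both DKO libraries and in 0 WT libraries: the ratio was 3.38 in DKO CXCR6+ against 0.275 to 0.593 in WT CXCR6+, and 3.17 in DKO SLAMF6+ against 0.366 to 0.526 in WT SLAMF6+. The Bcl2l11 to Bcl2 ratio was 0.0693 in DKO CXCR6+ against 0.0174 to 0.0312 in WT CXCR6+, and 0.146 in DKO SLAMF6+ against 0.025 to 0.0427 in WT SLAMF6+. These ratios are of counts, not of molecules per length.

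**Figure D3:**
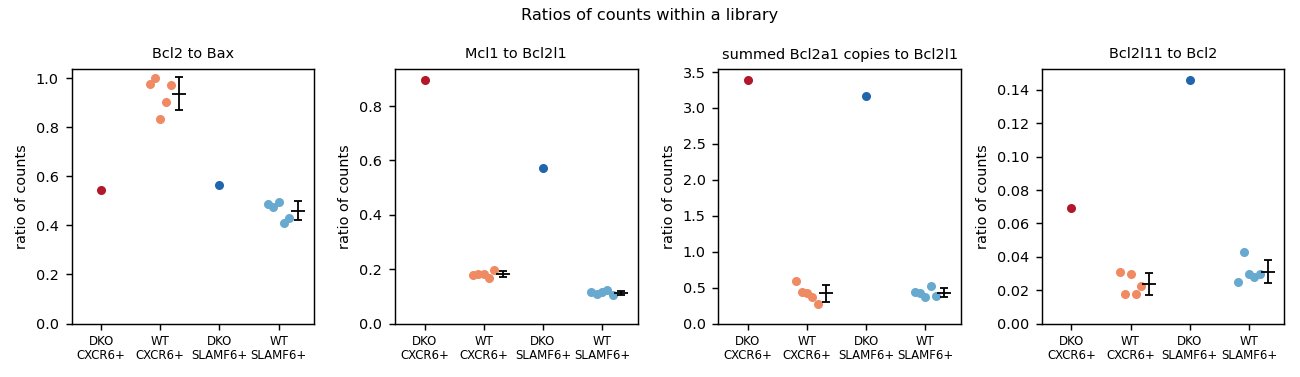
Ratio of the counts of 2 genes within each library (y axes, from 0) for Bcl2 to Bax, Mcl1 to Bcl2l1, the summed Bcl2a1 copies to Bcl2l1 and Bcl2l11 to Bcl2, with 1 point per library and the mean and SD of 5 WT libraries as black bars. The summed Bcl2a1 copies stand at 3.38 times Bcl2l1 in DKO CXCR6+, 3.17 times in DKO SLAMF6+ and no more than 0.593 in WT.

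Casp6, an executioner caspase gene whose product acts downstream of BAX and BAK, differed by more between DKO and WT than any member did. It fell to 21.3 CPM in DKO CXCR6+, against 105, 120.2, 112, 132 and 124 CPM in WT CXCR6+ (log2 fold change -2.48 ± 0.17 SE, adjusted p = 2.03e-06). It fell to 32.4 CPM in DKO SLAMF6+, against 224, 180.0, 180.3, 194 and 198 CPM in WT SLAMF6+ (log2 fold change -2.59 ± 0.17 SE, adjusted p = 1.77e-06). Both DKO values lay below all WT values of the same subset. Between the WT subsets Casp6 was lower in CXCR6+ (118 ± 10.5 CPM) than in SLAMF6+ (195 ± 17.9 CPM; log2 fold change -0.72, adjusted p = 5.19e-05).

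**Figure D4:**
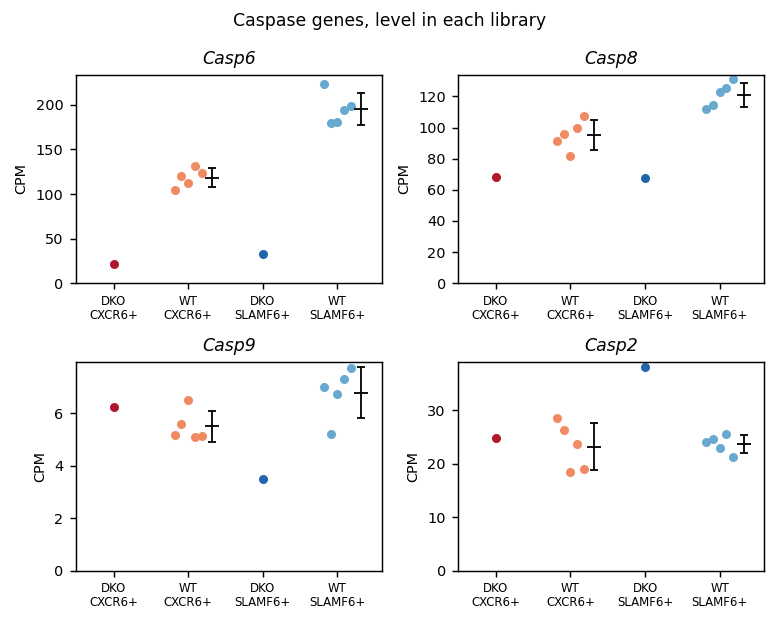
Level of the executioner caspase gene Casp6 and the initiator caspase genes Casp8, Casp9 and Casp2 in CPM (y axes, from 0) in every library, with 1 point per library and the mean and SD of 5 WT libraries as black bars. Casp6 stands at 21.3 CPM in DKO CXCR6+, at 32.4 CPM in DKO SLAMF6+ and at no less than 105 CPM in WT.

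The remaining pathway genes were listed by their textbook role, and the examples given are among the called genes of each list with the smallest p. Over all genes tested, 28.7% were called in DKO CXCR6+, 31.1% in DKO SLAMF6+ and 33.3% between the WT subsets. Of 15 other BCL2 family genes, 13 had enough counts to test. In DKO CXCR6+ 3 were higher and 2 lower than in WT CXCR6+, in DKO SLAMF6+ 1 was higher and 4 lower than in WT SLAMF6+, and in WT CXCR6+ 2 were higher and 4 lower than in WT SLAMF6+. Bik, a BH3-only gene, was higher in both DKO libraries: 18.2 CPM in DKO CXCR6+ against 7.03 ± 1.29 CPM in WT CXCR6+ (adjusted p = 0.00164), and 25.2 CPM in DKO SLAMF6+ against 10.1 ± 1.36 CPM in WT SLAMF6+ (adjusted p = 0.00202). Bcl2l14 was lower in both: it had 1 count (0.116 CPM) in DKO CXCR6+, a ratio of 0.00743 to the WT CXCR6+ mean of 15.6 ± 1.96 CPM (95% exact interval from the DKO count 0.000188 to 0.0414), and 3.04 CPM in DKO SLAMF6+ against 31.98 ± 3.19 CPM in WT SLAMF6+ (adjusted p = 4.63e-06). Bcl2l2, the gene of the guardian BCL-W, had 2.43 CPM in DKO CXCR6+ against 14.5 ± 5.09 CPM in WT CXCR6+ (adjusted p = 0.00219). Between the WT subsets, the BH3-only gene Bbc3 was higher in CXCR6+ (6.02 ± 1.51 CPM) than in SLAMF6+ (2.67 ± 0.413 CPM; adjusted p = 0.0026), and Bad was lower in CXCR6+ (12.8 ± 2.36 CPM) than in SLAMF6+ (26.7 ± 3.57 CPM; adjusted p = 0.000192).

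Upstream and downstream of the family, counts of calls stand beside a background over all genes tested of 12.8% higher and 15.9% lower in DKO CXCR6+, and 13.5% higher and 17.5% lower in DKO SLAMF6+. Of 8 genes of the apoptosome and of mitochondrial release, 0 were higher and 4 lower in DKO CXCR6+, and 0 were higher and 5 lower in DKO SLAMF6+. Vdac1, the gene of an outer-membrane channel, had 39.9 CPM in DKO CXCR6+ against 79.4 ± 11.1 CPM in WT CXCR6+ (adjusted p = 0.00279), and 34.9 CPM in DKO SLAMF6+ against 169 ± 16.5 CPM in WT SLAMF6+ (adjusted p = 1.82e-05). Apaf1, the apoptosome scaffold, had 12.8 CPM in DKO CXCR6+ against 25.1 ± 3.67 CPM in WT CXCR6+ (adjusted p = 0.00806). In WT, 1 of these 8 was higher and 4 lower in CXCR6+ than in SLAMF6+. Over all genes tested, that WT comparison had 15.6% higher and 17.7% lower. Of 3 initiator caspases, Casp8 was lower in DKO CXCR6+ (68.1 CPM) than in WT CXCR6+ (95.4 ± 9.57 CPM; adjusted p = 0.024) and in DKO SLAMF6+ (67.6 CPM) than in WT SLAMF6+ (121 ± 7.90 CPM; adjusted p = 0.00118), and Casp2 was higher and Casp9 lower in DKO SLAMF6+. Of 6 inhibitors of apoptosis 5 were tested, with 0 higher and 2 lower in DKO CXCR6+, 1 higher and 2 lower in DKO SLAMF6+, and, between the WT subsets, 1 higher and 1 lower in CXCR6+. Birc6 was the higher one, at 93.4 CPM in DKO SLAMF6+ against 47.2 ± 8.57 CPM in WT SLAMF6+ (adjusted p = 0.0017), and at 93.1 ± 5.71 CPM in WT CXCR6+ against the same WT SLAMF6+ libraries (adjusted p = 5.98e-05). Birc5, which also serves in cell division, had 20.6 CPM in DKO CXCR6+ against 94.3 ± 14.9 CPM in WT CXCR6+ (adjusted p = 4.45e-05), and 17.8 CPM in DKO SLAMF6+ against 151 ± 13.6 CPM in WT SLAMF6+ (adjusted p = 7.01e-06). Of 9 death receptor genes, 3 were higher and 2 lower in each DKO library. Cflar, the gene of the caspase-8 inhibitor c-FLIP, rose to 152 CPM in DKO CXCR6+ against 73.8 ± 6.75 CPM in WT CXCR6+ (adjusted p = 5.61e-05), and to 157 CPM in DKO SLAMF6+ against 61.3 ± 3.59 CPM in WT SLAMF6+ (adjusted p = 8.34e-06). Fas, a death receptor, fell to 21.6 CPM in DKO CXCR6+ against 58.0 ± 4.31 CPM in WT CXCR6+ (adjusted p = 0.000251), and to 43.7 CPM in DKO SLAMF6+ against 94.4 ± 13.3 CPM in WT SLAMF6+ (adjusted p = 0.00107).

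**Figure D5:**
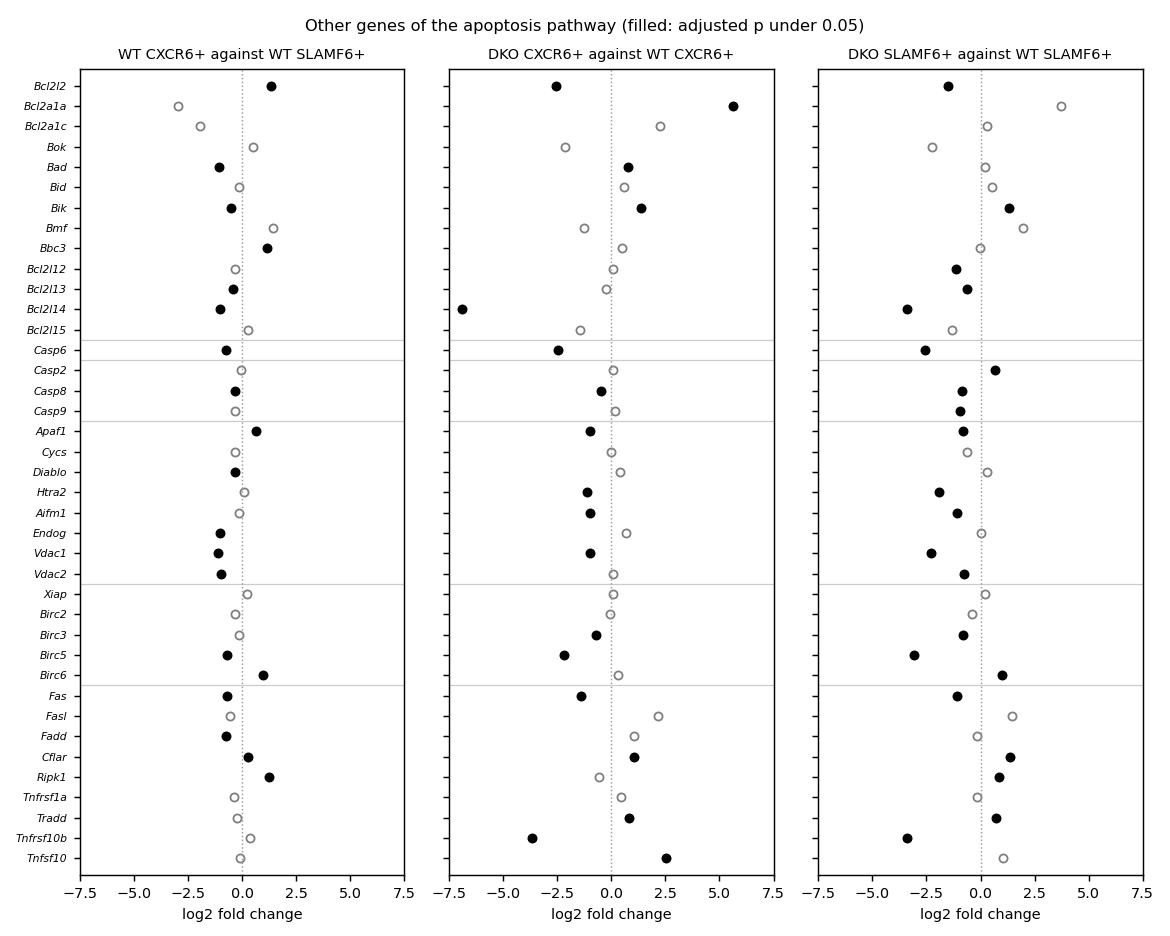
Log2 fold change (x axis) of other pathway genes, in the same 3 comparisons, with filled black points for adjusted p under 0.05 and open points otherwise. Grey lines part, from the top, other BCL2 family genes, Casp6, initiator caspases, apoptosome and mitochondrial release genes, inhibitors of apoptosis and death receptor genes; Casp6 lies to the left in both DKO comparisons, at -2.48 in CXCR6+ and -2.59 in SLAMF6+.

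As a description of each member's pattern, genes of at least 20 CPM on average were ranked by the root mean square difference of their centred log2 CPM over the 12 libraries. The closest were Snhg8 (0.0799) and Aimp1 (0.0941) to Bax, Ccnl1 (0.102) and Rbm39 (0.109) to Mcl1, Aars (0.109) and Bcat2 (0.132) to Bcl2l1, and Pcyt2 (0.128) and R3hdm1 (0.151) to Bcl2. Looser were Cyld (0.201) and Exosc3 (0.205) to Pmaip1, Rprd2 (0.201) and Ikzf1 (0.221) to Bcl2a1b, Trp53inp1 (0.215) and Rad1 (0.226) to Bak1, Mkrn1 (0.322) and Parp11 (0.33) to Bcl2l11, and Bcl2a1b itself (0.334) and Itgb2 (0.351) to Bcl2a1d. For comparison, the median over 5066 or 5067 candidate genes lay between 0.477 (Bax) and 0.777 (Bcl2a1d). With 10 of the 12 libraries from WT and depth and subset shared, such likeness says nothing of common control.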

How the data were processed

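RNA of 1000 sorted cells per library was turned into full-length cDNA by a modified SMART-Seq2 protocol and sequenced as paired 38-nt reads, per the labels' protocols. A single table of expected counts by gene symbol was deposited; the submitters' processing notes name STAR 2.7.7a, RSEM 1.3.3 and mm10, and the sources used here do not state the annotation or read filters. The expected counts were whole numbers as deposited by the authors and were fitted as such. Annotation (GENCODE M21) and promoters (RefSeq) are on GRCm38.

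All 12 libraries entered 1 fit with 4 group means and no block in edgeR 4.0.16 (R 4.3.3): TMM scaling, filterByExpr (21565 of 47359 genes kept), the quasi-likelihood test (common dispersion 0.396, 8 residual degrees of freedom) and Benjamini-Hochberg adjustment over all genes tested. CPM are counts per 1000000 of TMM-adjusted totals. Reads without molecular identifiers are not independent molecules, so intervals and totals limit counting error only. Steps were also run on simulated counts, with a dispersion set below the 0.396 of these data. That run does not measure error rates for these libraries. Alternatives used DESeq2 1.42.0, limma 3.58.1, other filters, scalings and length or GC offsets, and left out each WT library; 2 were added after seeing the data (Gm29094 joined to the summed A1 copies; erythroid genes left out of totals). Named were all members, Casp6, examples from up to 4 called genes with the smallest p per pathway list and comparison, and the 2 genes nearest each member in pattern; Bcl2a1a and Bcl2a1c are given as copies. Some genes that this rule covers are left out. The members and lists were chosen with earlier results of these data known. No column of the table was left unassigned.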

Additional observations from a re-analysis of the deposited data

Results flagged for a closer look

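The difference between DKO and WT in Bcl2 was unlike in the 2 subsets by a test of that difference itself (log2 difference of differences -0.81, adjusted p = 0.0305, edgeR's quasi-likelihood test). Bcl2 stood at 65.1 CPM in DKO CXCR6+ against 143 to 187 CPM in WT CXCR6+, and at 81.4 CPM in DKO SLAMF6+ against 105 to 131 CPM in WT SLAMF6+. The call rests on 1 DKO library per subset and passed in 16 of 21 alternatives, with the losses given above. It was the only 1 among 9 members, beside 10.3% of all genes tested. Among the 9 members in each WT subset, 18 groups of 5 libraries in all, 0 held a library that stood apart on the CPM scale by Dixon's 95% criterion (a gap of over 0.71 of the range). On the log2 scale 1 did: WT CXCR6+ replicate 5, low in Bcl2a1d at 9.71 CPM, with a gap of 0.802 of the range (0.692 in CPM). Chance alone passes this criterion in about 1 in 20 groups.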

How the results depend on the processing

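The calls of Bcl2, Mcl1 and Bax between the WT subsets passed in all 24 alternatives that refitted them, and those of Bcl2l1, Bcl2l11, Bcl2a1b, Mcl1 and Bax in DKO SLAMF6+ and of Bcl2, Bcl2l1 and Bcl2a1b in DKO CXCR6+ in all that could be run. When a change of at least 2-fold was also asked, 0 members were called between the WT subsets, 3 in DKO CXCR6+, 4 in DKO SLAMF6+ and 0 in the interaction. Calls in the interaction numbered 1 in the report, 2 with DESeq2 size factors, 3 with DESeq2's Wald test, 0 with limma-voom, 0 with no filter, 3 with at least 10 CPM in 5 libraries, 2 with offsets for GC content and length and 0 with a term for mt-Ts1. Leaving out 1 WT library at a time gave 3 to 4 members called between the WT subsets, 4 to 5 in DKO CXCR6+, 6 to 7 in DKO SLAMF6+ and 0 to 1 in the interaction. For these counts of calls, the share of all genes called under the same setting is not given. They describe only how the member calls held. With the median coding transcript length, 5 of 9 members kept their place in the order per kilobase in WT CXCR6+. The cause of these shifts was not tested, other than by construction for the 2-fold rule.

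Signs turned for values near 0. Between the WT subsets Bcl2a1b became 0.025 with DESeq2 size factors or the Wald test, 0.25 with at least 10 CPM in 5 libraries, 0.11 with the compared groups alone, 0.23 with GC content and length offsets and 0.12 with the mt-Ts1 term; it ran from -0.14 to 0.065 with 1 library left out. Bcl2l1 became -0.041 with the mt-Ts1 term and ran from -0.010 to 0.065 with 1 library left out, Bcl2l11 from -0.054 to 0.23 and Bcl2a1d from -0.030 to 0.31. The summed A1 copies with Gm29094 gave -0.023. In DKO SLAMF6+ Pmaip1 became 0.22 with at least 10 CPM in 5 libraries, 0.11 with the offsets and 0.0091 with the mt-Ts1 term, and ran from -0.15 to 0.025 with 1 library left out, and Bak1 ran from -0.028 to 0.17. Bcl2l1 passed between the WT subsets with at least 10 CPM in 5 libraries (0.30, adjusted p = 0.00355). Offsets moved the median of all genes in DKO CXCR6+ to -0.02, against -0.22 without them.

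Same-numbered WT libraries did not deviate together (correlations -0.03 to 0.06 over 5 pairs, -0.12 to 0.09 over 20 other pairs), so the number was not taken as a pairing. With it as a replicate block, 3 members were called between the WT subsets and Bcl2a1b stood at 0.10. The block with offsets called 4, with Bcl2a1b at 0.22. For these settings too, the share of all genes called is not given, so the counts describe only how the member calls held.

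Both DKO groups are single libraries, sequencing batch is not given in the sources used here, and Bcl2l11 and Bak1 rest on 39 and 53 counts in DKO CXCR6+.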
